A study of Mus musculus with 2 samples.

Results

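The cytosolic ribosomal protein genes encode the proteins that, together with ribosomal RNA, build the small and the large subunit of the ribosome. Members were all gene symbols that join Rpl or Rps to a digit, plus Rpsa, Rplp0, Rplp1 and Rplp2, without the S6 kinase symbols (Rps6k) and without symbols that hold -ps, which name pseudogenes. The rule took 86 of the 32285 genes in the feature list, 34 with a small-subunit symbol (Rps) and 52 with a large-subunit symbol (Rpl). It used names only, so the levels of the members played no part in their choice. The rule also takes Rps19bp1, which encodes a protein that binds the ribosomal protein S19 and is not part of the ribosome, and it leaves out Fau, whose product carries a ribosomal protein fused to a ubiquitin-like protein.

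The samples were 2 libraries of mouse prostate, 1 of tumour and 1 of the normal adjacent tissue. Cells positive and negative for CD45, the pan-leukocyte surface protein, were sorted, and 10x Genomics 3′ libraries were made, in which each unique molecular identifier (UMI) counts 1 captured transcript. The labels give neither strain, age nor tumour model, and they use the word healthy in the title of the normal adjacent library. With 1 library per group nothing could be tested between the groups: each comparison below sets 1 library against the other, and intervals are exact 95% intervals that cover counting error only.

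There were 92188538 UMIs on 8237 barcodes (median 6015) in the tumour library and 77855775 UMIs on 6553 barcodes (median 6017) in the normal adjacent library. Cells needed at least 200 detected genes and at most 20% mitochondrial UMIs, which left 7768 tumour and 6209 normal adjacent cells, with 16 barcode sequences found in both. Types were gated on the summed UMIs of fixed marker lists per 10000 UMIs, and cells that also carried markers of another lineage were left out of the gates (1619 tumour and 1116 normal adjacent cells). Macrophages lost most, 753 tumour and 471 normal adjacent cells, with 885 and 571 kept. CD8 T cells lost 252 and 292, with 407 and 458 kept, and neutrophils lost 249 and 100, with 1011 and 515 kept. The gates named 4276 tumour and 3176 normal adjacent cells as 1 of 14 types with at least 50 cells in each library, and the types are called by their gates. Every marker of each used list was detected. For the luminal progenitor gate only 1 marker in the tumour library and 0 in the normal adjacent library were among the 10 genes with the largest fold over the other cells. The gates picked cells largely by these same markers, so such a ranking is no independent support. Every type name rests on its gate. Regulatory T cells, with 21 tumour and 29 normal adjacent cells, fell under the minimum.

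Ribosomal proteins are made in near-equal amounts, and free ribosomal proteins are degraded. Their mRNAs start with a run of pyrimidines, the 5′ terminal oligopyrimidine (TOP) motif, through which mTOR signalling and the binding protein Larp1 set how strongly they are translated. The mRNAs are short, stable and abundant, and in cells that grow or prepare to divide they take a large part of all mRNA, while terminally differentiated granulocytes make few ribosomes. Several members have a close paralog, such as Rpl22l1 for Rpl22, Rps27l and Rps27rt for Rps27, and Rpl36al for Rpl36a, and many have processed pseudogenes elsewhere in the genome.

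The mouse RefSeq promoter table matched 66 of the 86 members. A run of at least 7 bases that opened with C and held only C or T lay between 30 bases before and 20 bases after the annotated start, on the sense strand, in 36 of these 66 members (54.5%), against 26.3% of 26959 other genes. The 7 letters CCGGAAG, which hold the core that ETS-family factors bind, occurred on either strand of the 300-base window (250 bases before to 50 after the start) in 26 of the 66 members (39.4%), against 9.86% of other genes. TATAAA occurred in 10.6% of members and 15.7% of other genes, CACGTG in 9.09% and 8.09%, and AAGATGGC in 9.09% and 3.18%. These matches were counted as letters and are no evidence of binding. The start regions of 5 members that the results below turn on are shown from 40 bases before the start to 30 after it, with each such pyrimidine run in capitals. Coordinates are on GRCm38.p6, and the reads' own build was not used for them.
Rps24 (chr14:24490638-24490707, plus strand): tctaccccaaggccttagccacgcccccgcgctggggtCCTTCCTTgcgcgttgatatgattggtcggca
Rpl38 (chr11:114668540-114668609, plus strand): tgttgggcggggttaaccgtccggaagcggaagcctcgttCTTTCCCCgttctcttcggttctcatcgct
Rps27 (chr3:90213619-90213688, minus strand): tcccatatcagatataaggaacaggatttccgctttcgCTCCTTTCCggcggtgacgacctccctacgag
Rps27rt (chr9:114982710-114982779, minus strand): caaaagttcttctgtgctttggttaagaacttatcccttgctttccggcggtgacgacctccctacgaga
Rps27l (chr9:66946046-66946115, plus strand): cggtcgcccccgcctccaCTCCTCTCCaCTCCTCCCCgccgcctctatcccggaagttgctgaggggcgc
Rps24 was the member with the most UMIs, Rpl38 and Rps27 were among the members furthest below the others in the tumour library, and Rps27l differed most between types. The run opened at the annotated start in Rpl38 and 2 bases before it in Rps24 and Rps27, whereas Rps27l had 2 runs of 9 bases, which opened 22 and 12 bases before the start. In Rps27rt no run of this length lay in the searched window.

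Ribosomal protein genes took 17.03% of all UMIs in the tumour library and 18.3% in the normal adjacent library. The counts were 15526584 of 91193414 UMIs in tumour cells (17.02 to 17.03%) and 14073863 of 77095161 UMIs in normal adjacent cells (18.25 to 18.26%), a ratio of 0.933 (log2 -0.10). Per cell the share had a median of 16.3% in tumour cells, with 4.06% at the 10th and 25.8% at the 90th percentile, and a median of 17.7% in normal adjacent cells, with 4.79% and 26.8% at the same percentiles. The cells of both libraries therefore overlapped over nearly the whole range.

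Within types the difference went both ways. Of the 14 types, 6 had a higher and 8 a lower share in the tumour library, and the ratios of tumour to normal adjacent lay between 0.918 and 1.06. Over the cells of the 14 types the share was 16.8% in the tumour library and 17.98% in the normal adjacent library, and it came to 18.1% for the tumour library when its types were given the UMI weights of the normal adjacent library. The UMI weights that differed most were those of macrophages (31.5% of the UMIs of the 14 types in tumour, 21.5% in normal adjacent tissue), CD8 T cells (9.94% and 16.2%) and B cells (2.76% and 6.42%). Neutrophils, the type with the lowest share, gave 6.53% of these UMIs in tumour and 5.54% in normal adjacent tissue.

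B cells had the highest share in both libraries, 27.1% in the tumour library and 28.5% in the normal adjacent library. Neutrophils had the lowest, 5.29% in the tumour library and 5.12% in the normal adjacent library. The highest share was 5.13 times the lowest in the tumour library and 5.57 times in the normal adjacent library, while no type's ratio between the libraries left the range from 0.918 to 1.06. CD8 T cells stood at 24.4% in tumour and 23.4% in normal adjacent tissue, CD4 T cells at 23.9% and 22.7%, and natural killer (NK) cells at 23.2% and 22.6%. Gamma delta T cells stood at 21.1% in tumour and 21.4% in normal adjacent tissue, so in both libraries the highest 5 shares were those of the lymphocyte types.

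**Figure D1:**
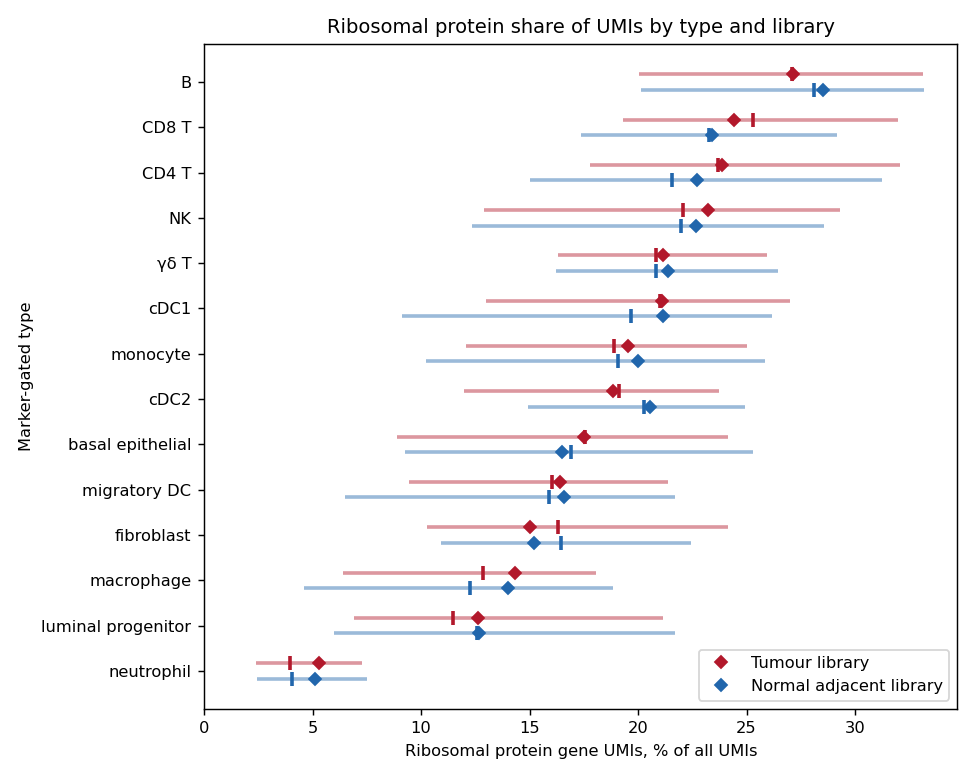
Share of UMIs in ribosomal protein genes (x axis, % of all UMIs) for the 14 gated types (y axis), tumour above normal adjacent. Diamonds are the pooled share of 1 library, ticks the median cell and lines the range from the 10th to the 90th percentile of cells. Types run from B cells (27.1% in tumour) to neutrophils (5.29% in tumour), and the libraries lie close together within each type.

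Among mononuclear phagocytes the dendritic cells and monocytes lay above the macrophages. Type 1 conventional dendritic cells (cDC1) had 21.1% in tumour and 21.2% in normal adjacent tissue, monocytes 19.5% and 20.01%, and type 2 conventional dendritic cells (cDC2) 18.9% and 20.5%. Migratory dendritic cells had 16.4% in tumour and 16.6% in normal adjacent tissue, and macrophages had 14.3% and 14.0%. Outside the immune gates, basal epithelial cells had 17.5% in tumour and 16.5% in normal adjacent tissue. Fibroblasts had 15.01% in tumour and 15.2% in normal adjacent tissue, and luminal progenitor epithelial cells had 12.6% and 12.7%. Only the order of cDC2 against monocytes and of basal cells against migratory dendritic cells differed between the libraries.

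The sign of the difference held under all 10 alternative settings in 3 types. The share was lower in tumour than in normal adjacent tissue in cDC2 (ratio 0.918, interval 0.913 to 0.924) and in B cells (0.951, 0.947 to 0.956), and higher in CD8 T cells (1.04, 1.04 to 1.05). In the other 11 types at least 1 alternative turned the sign, basal cells (1.06) included.

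Cells of 1 type differed more among themselves than the libraries did. In tumour NK cells the share ran from 12.9% at the 10th to 29.3% at the 90th percentile, and in normal adjacent NK cells from 12.3% to 28.6%. The share moved with the depth of the cell in some types: among NK cells its median was 17.4% in the shallower and 25.02% in the deeper part of the tumour cells, split at the median depth, and 17.02% and 24.2% in normal adjacent cells. In macrophages the shallower and deeper parts had medians of 10.8% and 14.4% in tumour and 8.72% and 13.7% in normal adjacent tissue. Fibroblasts ran the other way, with 18.7% in the shallower and 14.9% in the deeper part in tumour and 18.3% and 15.7% in normal adjacent tissue. The part of depth in these differences was not tested further.

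Neutrophils held few ribosomal protein UMIs in absolute number, with a median of 85 per tumour cell at a median depth of 2233 UMIs and 107 per normal adjacent cell at 2796 UMIs. B cells, also shallow, held 1159 per tumour cell at 4158 UMIs and 1313 per normal adjacent cell at 4742 UMIs. Mitochondrial UMIs made up 1.17% of tumour and 0.890% of normal adjacent neutrophil UMIs. Calprotectin UMIs (S100a8 and S100a9) made up 6.505% of tumour and 7.37% of normal adjacent neutrophil UMIs, and in the other types they stayed at or under 0.0914% in tumour and 0.0546% in normal adjacent tissue. How much of the neutrophil value comes from RNA free in the droplets was not tested.

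Cycling cells differed from the other cells of their type. Cycling CD8 T cells, gated on genes such as Mki67, had a lower median than the others: 22.7% against 25.5% in tumour (39 and 368 cells) and 19.8% against 23.5% in normal adjacent tissue (25 and 433 cells). They were deeper, at 17217 against 6402 UMIs in tumour and 14546 against 6818 UMIs in normal adjacent tissue. Cycling macrophages had 13.4% against 12.8% in tumour and 13.2% against 12.1% in normal adjacent tissue, again in deeper cells.

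The balance between the subunits changed little. Small-subunit members took 42.4% to 47.7% of the ribosomal protein UMIs over the types of the tumour library and 42.3% to 47.2% over those of the normal adjacent library. Luminal progenitor cells were at the low end in both libraries, with 42.4% in tumour and 42.3% in normal adjacent tissue. Migratory dendritic cells were highest in tumour (47.7%), and B cells were highest in normal adjacent tissue (47.2%).

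All 86 members had at least 1 UMI. Rps24, a small-subunit protein, had the most, with 5388 CPM (UMIs scaled to a common total per library or type) in tumour and 6013 CPM in normal adjacent cells. Rpl13 followed with 4587 and 4784 CPM, Rpl23 with 4272 and 4557 CPM, Rps16 with 3825 and 4057 CPM, and Rplp1, a protein of the ribosomal stalk, with 3894 and 3947 CPM. Each of these 5 was lower in tumour over all cells, by ratios of 0.896 for Rps24 to 0.987 for Rplp1, and none departed past the limit used below from the other members in any type.

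The members with the fewest UMIs were paralogs with restricted expression, the S19-binding protein and Rpl10. Rpl10l, a retrogene paralog of Rpl10 known for its role in the testis, had 6 UMIs in tumour and 6 in normal adjacent cells. Rpl39l, the male germ-cell paralog of Rpl39, had 77 in tumour and 46 in normal adjacent cells, and Rpl3l, the striated-muscle paralog of Rpl3, had 101 and 105. Their intervals for the ratio all held 1. Rpl10, a core large-subunit protein, had 2154 UMIs in tumour and 2211 in normal adjacent cells (23.6 and 28.7 CPM).

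Many members share their 3′ ends, where these libraries were read, with other genes. In the mouse GENCODE transcripts all 60-base stretches in the last 300 bases of Rpl10, Rpl36a, Rps12 and Rps27 also occurred in another gene, for Rpl10 in 11 other genes and for Rps27 in 7. At least 50% of these stretches were shared in 48 of the 86 members, and 0 in 20. Sharing was not tied to a low level throughout, since Rps12 stood at 3151 CPM in tumour and 3235 CPM in normal adjacent cells, and the rank correlation of the shared percentage with the summed CPM over the 86 members was -0.12. The levels of members with shared 3′ ends are uncertain. How the counting treated such reads is not given in the sources used here, and its part in the levels was not tested.

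Single members departed from the others between the libraries, and where they did so past the limit set here they were lower in tumour. The departure of a member in a type is its ratio of tumour to normal adjacent CPM divided by the median ratio of the members in that type. The limit was a departure of 0.8 on the lower side and its reciprocal on the higher side. Members needed at least 200 UMIs over both libraries in a type, which gave 1119 member-by-type values from 83 members, 77 of them measured in all 14 types and 6 in some. Past the limit lay 53 of the 1119 values (4.74%), all lower in tumour and 0 higher. Over all genes of the same types, relative to the median gene, 14.8% of 39121 values lay past the same limit, 7.34% lower and 7.43% higher in tumour. The members' values past the limit thus all lay on the lower side, while those of all genes were split almost evenly. Values ran from 0.621 to 1.24, so the largest on the higher side lay just inside the limit.

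The 53 values came from 13 members. Rpl9 passed in 11 of 14 types, Rps27 in 10 of 13 and Rpl38 in 10 of 14. Of 14 types, Rpl41 passed in 4, Rps21, Rpl37 and Rps28 in 3 each, Rpl36 and Rps2 in 2 each, and Rpl22l1 and Rpl35 in 1 each. Rpl10 passed in 2 of the 2 types in which it was measured, and Rps27rt in 1 of 7. The median departures over types were 0.719 for Rps27, 0.738 for Rpl9, 0.748 for Rpl10 (2 types only), 0.789 for Rpl38, 0.815 for Rpl41, 0.817 for Rpl37 and 0.820 for Rps28. On the other side Rpl23a (1.13), Rpl13a (1.13), Rps19 (1.13), Rps14 (1.12) and Rpl12 (1.12) had the highest medians.

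**Figure D2:**
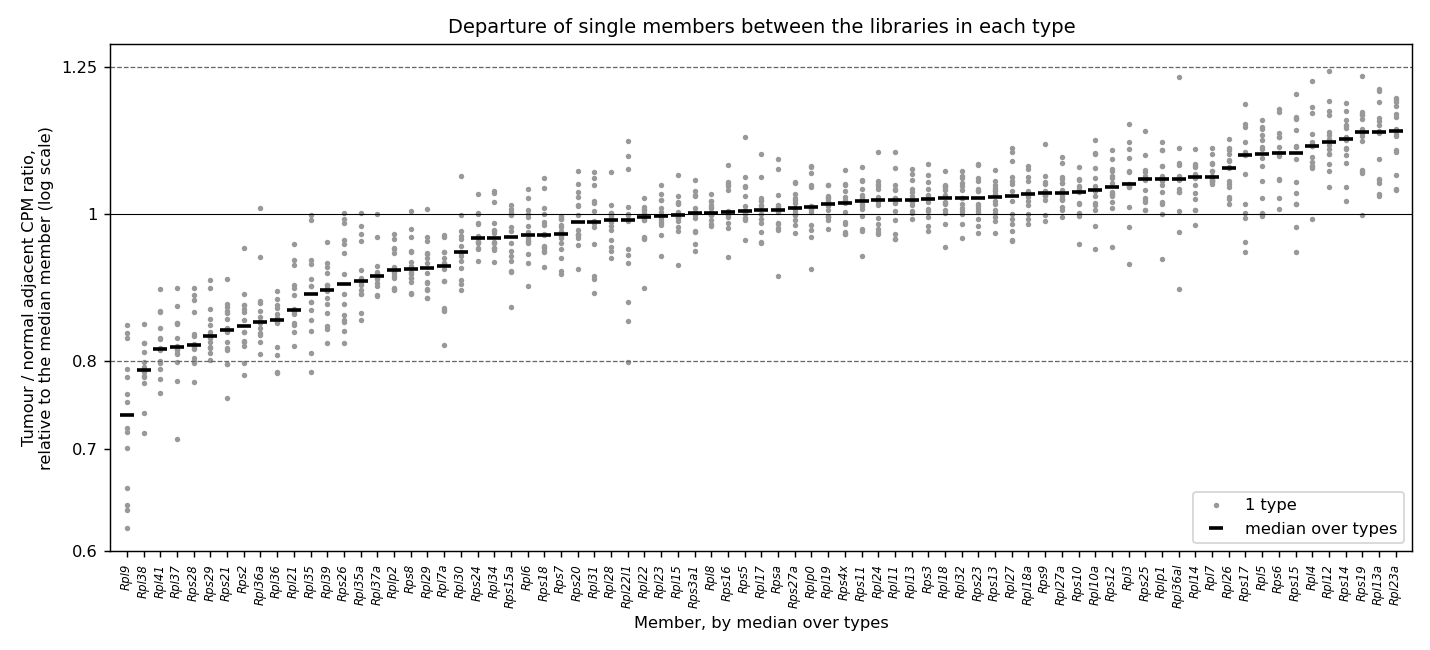
Departure of each of the 77 members measured in all 14 types (x axis, ordered by median): the tumour to normal adjacent CPM ratio divided by the median member ratio of the type (y axis, log scale). Grey points are types, black ticks medians over types and dashed lines 0.8 and its reciprocal. The left end, led by Rpl9 and Rpl38, lies under 1 in every type, and no point lies above the upper line.

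The departures had the same side in very different cells. Of the 77 members measured in all 14 types, 15 (19.5%) lay below the median member in every type, and 8 (10.4%) lay above it in every type. Of 503 other genes measured in all 14 types, 14 (2.78%) lay below the median gene in every type and 10 (1.99%) above. The other genes were not matched to the members by UMI count. A gene needed only 200 UMIs per type, most members had far more, and genes with few UMIs change side more easily by counting error. Each set was also compared with its own median, so these percentages are not directly comparable. Below in every type were Rps2, Rps7, Rps21, Rps28, Rps29, Rpl7a, Rpl9, Rpl21, Rpl35, Rpl36, Rpl37, Rpl38, Rpl39, Rpl41 and Rplp2. Above in every type were Rps6, the substrate of the S6 kinases, Rps14, Rps25, Rpl7, Rpl12, Rpl13a, Rpl23a and Rpl26. The types come from the same pair of libraries, so they are no replicates of the comparison, and a difference between the libraries themselves cannot be told apart from one between the tissues.

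Rpl9, a large-subunit protein near the stalk base, stood at 131 CPM over all tumour cells and 191 CPM over all normal adjacent cells. In luminal progenitor cells it had 400 UMIs (87.4 CPM) in tumour and 466 UMIs (136.7 CPM) in normal adjacent tissue, a departure of 0.638 (0.557 to 0.731). In CD8 T cells it had 195 CPM in tumour and 258 CPM in normal adjacent tissue (0.723, 0.659 to 0.793). Its departure came closest to 1 in neutrophils (0.845, 0.650 to 1.102), where the interval held 1. Of the 60-base stretches at the 3′ end of Rpl9, 65.1% were shared with other genes.

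Rps27, a small-subunit zinc-finger protein, stood at 82.2 CPM in tumour and 123.8 CPM in normal adjacent cells. In gamma delta T cells it had 190 UMIs (93.4 CPM) in tumour and 265 UMIs (147 CPM) in normal adjacent tissue, a departure of 0.636 (0.525 to 0.769). In macrophages it had 57.1 CPM in tumour and 78.1 CPM in normal adjacent tissue (0.712, 0.633 to 0.801). Rps27rt, its retrogene copy on chromosome 9, was also lower over all cells, at 50.6 CPM in tumour and 64.8 CPM in normal adjacent cells. Its departure was below 1 in the 7 types in which it was measured, with a median of 0.881. Of the Rps27rt stretches 88.0% and of the Rps27 stretches 100% were shared, so that the pair cannot be separated with confidence.

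Rpl38, a small large-subunit protein whose loss alters the axial skeleton in mice, departed with far higher counts. Over all cells it stood at 931 CPM in tumour (84902 UMIs) and 1269 CPM in normal adjacent cells (97849 UMIs). In macrophages it had 736 CPM in tumour and 908 CPM in normal adjacent tissue (0.789, 0.763 to 0.816). In CD8 T cells it had 1480 CPM in tumour and 1820 CPM in normal adjacent tissue (0.780, 0.755 to 0.807), and in neutrophils 361 and 481 CPM (0.717, 0.651 to 0.790). Its 14 departures lay between 0.717 and 0.846. The start region of Rpl38 printed above holds a pyrimidine run, as does that of Rps24, which departed little (median 0.964).

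Rpl37, another short large-subunit protein, shared 0% of its 3′ stretches with other genes. It stood at 1741 CPM in tumour and 2231 CPM in normal adjacent cells, and its largest departure was in CD4 T cells, with 1982 CPM in tumour and 2631 CPM in normal adjacent tissue (0.710, 0.657 to 0.767). Over all types its departures lay between 0.710 and 0.894.

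On the higher side, Rpl12 in basal cells had 2334 CPM in tumour and 1770 CPM in normal adjacent tissue, a departure of 1.24 (1.18 to 1.30). Rpl13a, a large-subunit protein known for a role in the interferon response outside the ribosome, had 1955 CPM in tumour and 1619 CPM in normal adjacent luminal progenitor cells (1.205, 1.165 to 1.247). Rps19, the small-subunit protein most often mutated in Diamond-Blackfan anaemia, had 4275 CPM in tumour and 3271 CPM in normal adjacent CD4 T cells (1.23, 1.16 to 1.31). Over all cells Rpl12, Rpl13a and Rps19 were 1.02, 1.02 and 1.05 times as high in tumour as in normal adjacent cells, while the whole family stood at 0.933.

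The members that lay lowest in tumour were mostly those with short coding sequences. Of the 77 members measured in all 14 types, 18 have a coding sequence under 360 nt, and 16 of them had a median departure under 1. Of the 59 longer members 18 did. The exceptions among the short members were Rplp1 (342 nt, 1.05) and Rpl36al (318 nt, 1.05), and Rpl9 (576 nt), Rps2 (879 nt, 0.844) and Rpl21 (480 nt, 0.865) were long members far below 1. The rank correlation of departure with coding length was 0.43 over the 77 members, which share both libraries. It was 0.28 with the length of the whole transcript, the first length measure tried, by which 13 of 17 members under 500 nt had a median under 1.

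The ratio over all cells was also set against that of other short genes. Over all cells, members with under 360 nt of coding sequence and at least 2000 UMIs had a median log2 ratio of -0.30 between tumour and normal adjacent cells, and 90.5% of these 21 members were lower in tumour. The 388 other protein-coding genes of that length had a median log2 ratio of -0.0024, with 50.5% lower in tumour. Members of 360 to 480 nt had a median of -0.07, with 74.1% lower in tumour. Members of 480 to 720 nt had a median of -0.07 with 90% lower, and members of 720 to 1500 nt one of -0.06 with 73.3% lower. Members of every length were thus mostly lower in tumour, as the whole family was, and the shortest differed in the size of the shift. The shift of the shortest members was larger than that of the family as a whole. For the other genes no departure within types was measured. They were not matched to the members by level, and ratios over all cells also hold differences in cell types. Whether length itself plays a part was not tested.

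**Figure D3:**
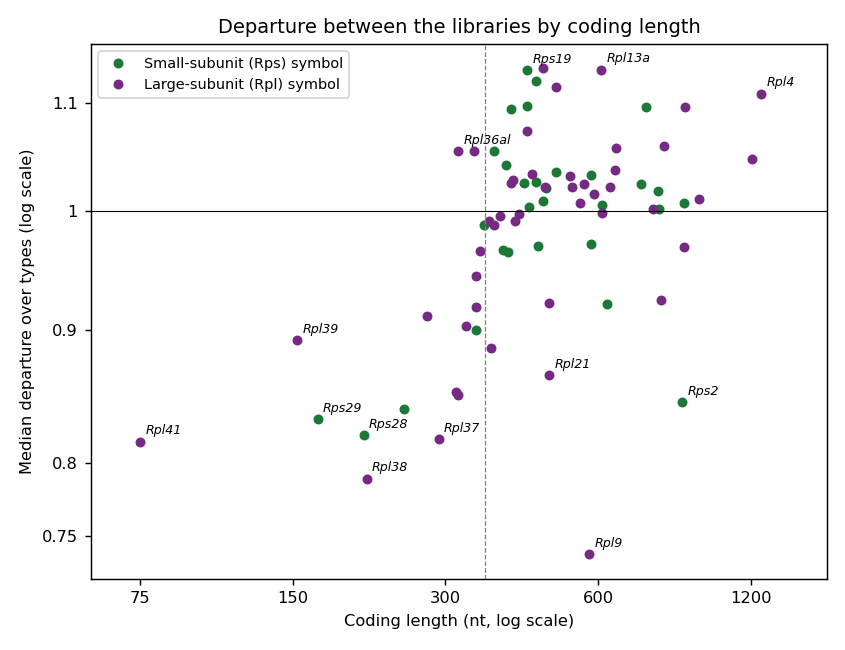
Median departure over the 14 types (y axis, log scale) against coding length (x axis, nt, log scale) for the 77 members measured in all types, coloured by subunit. The dashed line marks 360 nt: 16 of the 18 members left of it lie under 1, against 18 of 59 right of it.

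Between types, 3 members departed from the rest of the family past 2-fold in both libraries. Here a member's share of the ribosomal protein UMIs of a type was divided by the median of that share over the types of the same library. The median took in all 14 types, also those in which the member had fewer UMIs than the minimum. Of 83 members measured, Rps27l, Rps27 and Rps19bp1 passed. By the same rule, with UMIs set against the ribosomal protein UMIs of each type, 37.7% of 8258 genes passed. For members a change of the whole family cancels in this share, while for other genes it enters the value. Members and other genes are therefore not directly comparable by this rule. In plain CPM 78 of 83 members passed 2-fold, against 53.1% of 7960 genes. Both rules needed only 1 type past 2-fold. The family share was 5.29% in tumour and 5.12% in normal adjacent neutrophils, against 12.6% and 12.7% in luminal progenitor cells, the next lowest type. Which types carried the 78 members past the limit in CPM was not counted. By share of the family, few members departed between types.

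Rps27l, the paralog of Rps27 that p53 induces, departed most. In migratory dendritic cells it had 1951 UMIs (1447 CPM) in tumour and 1720 UMIs (1634 CPM) in normal adjacent tissue. That was 0.884% of ribosomal protein UMIs in tumour and 0.985% in normal adjacent tissue, 4.001 and 4.309 times the median type. In B cells it had 156.2 CPM in tumour and 156.5 CPM in normal adjacent tissue, 0.261 and 0.240 times the median type by share. Gamma delta T cells (0.335 in tumour, 0.326 in normal adjacent tissue), NK cells (0.406 and 0.426) and CD8 T cells (0.451 and 0.452) were also under 0.5 times the median. The next type below migratory dendritic cells by level was cDC2, with 674 CPM in tumour and 589 CPM in normal adjacent tissue. Luminal progenitor cells followed the same side by share, at 1.80 times the median type in tumour and 1.99 times in normal adjacent tissue.

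The difference of Rps27l between types was far larger than that between the libraries. Its departures between the libraries had both sides: above 1 in cDC2 (1.24, 1.11 to 1.38) and macrophages (1.18, 1.12 to 1.24), and below 1 in migratory dendritic cells (0.886, 0.830 to 0.946), basal cells (0.838, 0.760 to 0.925) and luminal progenitor cells (0.864, 0.813 to 0.918). None of them passed the limit between libraries.

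Rps27 took 0.0953% of ribosomal protein UMIs in tumour neutrophils and 0.126% in normal adjacent neutrophils, 2.10 and 2.03 times the median type. With cells that also carried markers of another lineage kept, the tumour value was 0.63 on the log2 scale, under the 2-fold limit. The counts were 129 UMIs in tumour and 102 UMIs in normal adjacent neutrophils. Its level there was low in CPM (50.4 in tumour, 64.4 in normal adjacent tissue), since the whole family was low. Rps19bp1 took 2.58 times the median share in tumour and 2.17 times in normal adjacent luminal progenitor cells, with 208 and 151 UMIs, but it had enough UMIs in 3 types only.

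**Figure D4:**
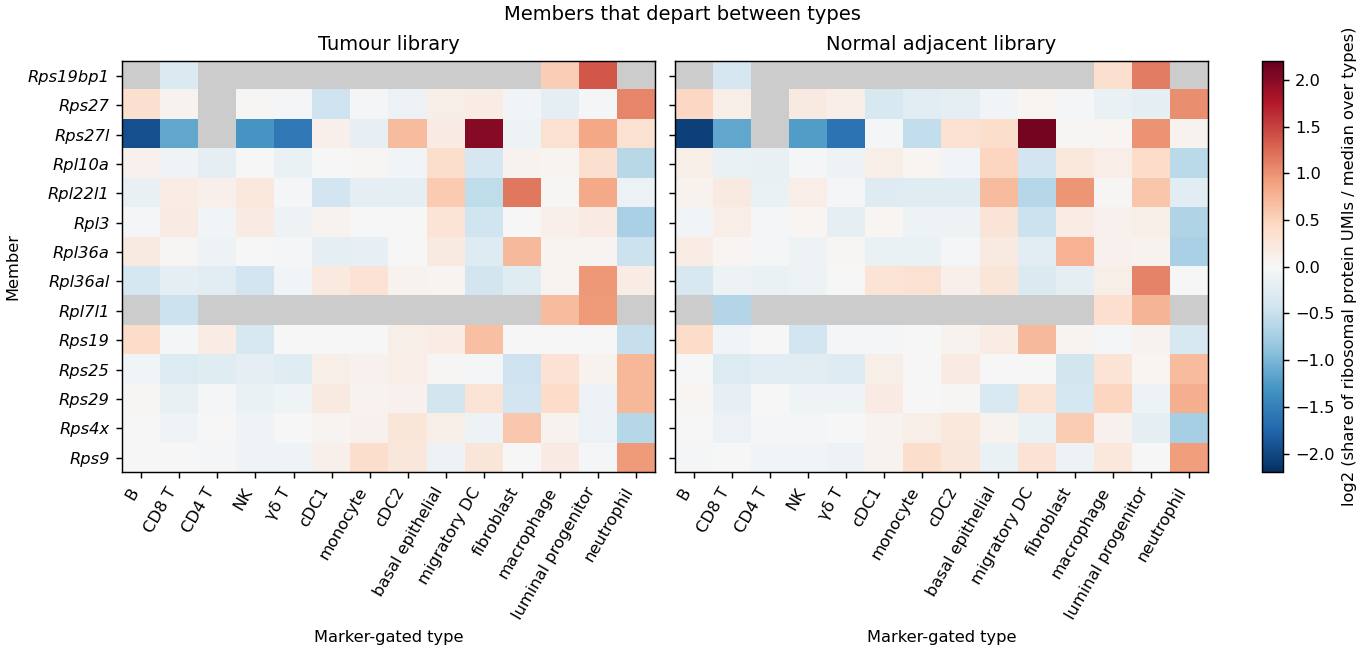
Share of ribosomal protein UMIs relative to the median over types (colour, log2) for the 14 members past 1.5-fold in both libraries (rows) in the 14 types (columns), tumour left and normal adjacent right. Grey marks fewer than 200 UMIs over both libraries. Rps27l stands out in migratory dendritic cells (4.001 and 4.309 times the median) and in the opposite direction in B cells.

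At a limit of 1.5-fold 14 members passed, and several of them in neutrophils. Rps9 took 3.29% of ribosomal protein UMIs in tumour neutrophils and 3.13% in normal adjacent neutrophils, 1.92 and 1.90 times the median type. Rps25 (1.65 in tumour, 1.62 in normal adjacent tissue) and Rps29 (1.66 and 1.74) were also relatively high there. Rpl3 (0.609 and 0.635), Rpl10a (0.657 and 0.666) and Rps4x (0.648 and 0.601) were relatively low in neutrophils. Rps19 was 1.58 times the median type in tumour and 1.65 times in normal adjacent migratory dendritic cells.

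Rpl22l1, the paralog of Rpl22 that can take its place in the ribosome and acts in T cell development, took its highest share of the family in fibroblasts. It had 1124 CPM in tumour and 1058 CPM in normal adjacent fibroblasts, 2.24 and 1.97 times the median type by share. By share it was also high in luminal progenitor cells (1.78 in tumour, 1.53 in normal adjacent tissue). In B cells it had 816 CPM in tumour and 1063 CPM in normal adjacent tissue, there about level with fibroblasts, and this was the only value of Rpl22l1 past the limit between the libraries (0.799, 0.737 to 0.865). Rpl36al, a retrogene paralog of Rpl36a, was 1.94 times the median type in tumour and 2.14 times in normal adjacent luminal progenitor cells, and Rpl36a was 1.63 and 1.71 times the median type in fibroblasts. Rpl7l1, a paralog of Rpl7 with a role in ribosome assembly, was 1.92 times the median type in tumour and 1.69 times in normal adjacent luminal progenitor cells. It had enough UMIs in 3 types only.

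**Figure D5:**
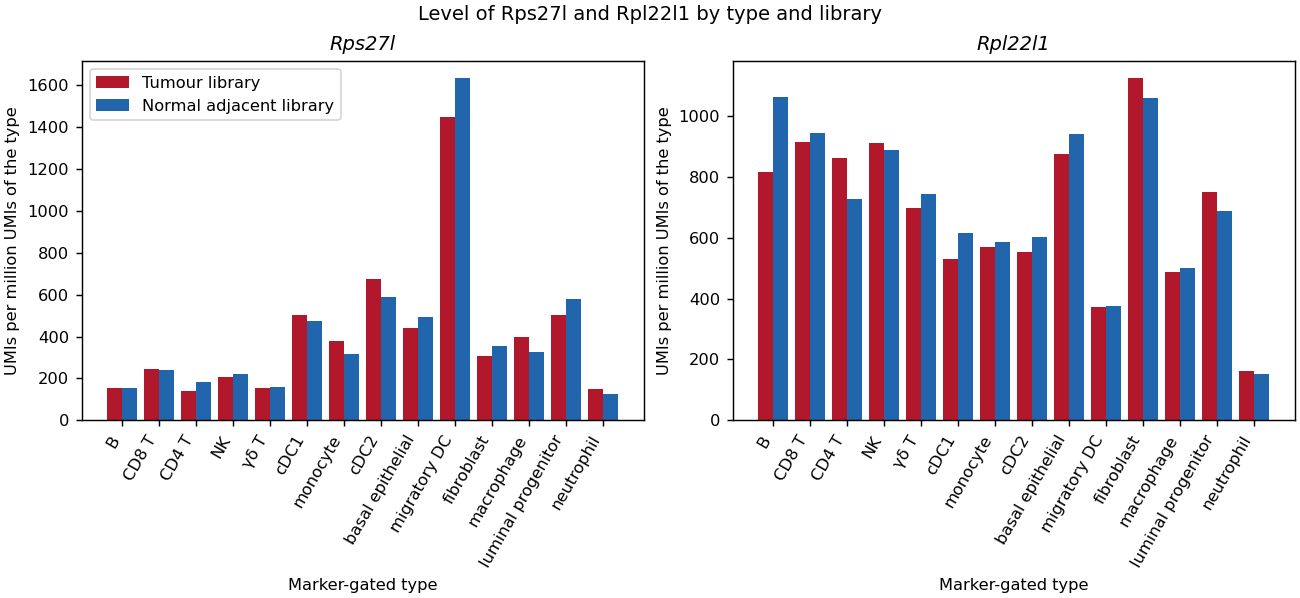
Level of Rps27l (left) and Rpl22l1 (right) in CPM of the type (y axis, from 0) in the 14 types (x axis), tumour bars left of normal adjacent bars. Rps27l is highest in migratory dendritic cells (1447 CPM in tumour, 1634 CPM in normal adjacent tissue) and Rpl22l1 is lowest in neutrophils in both libraries.

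Other genes of translation followed the family across types. A list of 20 translation factors and other genes with TOP mRNAs summed to 13765 CPM in tumour and 13062 CPM in normal adjacent neutrophils, the lowest of all types. Its sums had a rank correlation with the ribosomal protein share of 0.98 over the 14 types in tumour and 0.97 in normal adjacent tissue, where list and family share each library's denominator. Between the libraries 3 of its 265 gene-by-type values lay higher and 4 lower past the same limit in plain CPM, against 7.99% higher and 6.89% lower among all genes. Eef1a1, the elongation factor that delivers aminoacyl-tRNA, had a median over types of 6223 CPM in tumour and 6373 CPM in normal adjacent tissue. Tpt1, a TOP mRNA that encodes a growth-related tumour protein, had medians of 7500 CPM in tumour and 6762 CPM in normal adjacent tissue and was higher in tumour in all 14 types, by ratios of 1.01 to 1.18. Fau, which the member rule leaves out, went the other way, with medians of 5257 CPM in tumour and 5840 CPM in normal adjacent tissue. It was higher in tumour in 1 of 14 types, and its ratios ran from 0.847 to 1.01.

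Ribosome biogenesis genes, 24 in the list, also had their lowest sum in neutrophils (626 CPM in tumour, 673 CPM in normal adjacent tissue) and their highest in B cells (2424 and 3037 CPM). Their rank correlation with the family share was 0.83 in tumour and 0.75 in normal adjacent tissue. Of 108 values 5 lay higher (4.63%) and 15 lower (13.9%) in tumour, against 7.99% higher and 6.89% lower among all genes. Of the lower values 7 were among the 12 measured in B cells, where the list median was -0.34 on the log2 scale. Relative to the median gene, 7.45% of all genes in B cells lay past the limit on the lower side. Ncl, nucleolin, had 921 CPM in tumour and 1221 CPM in normal adjacent B cells. Fbl, the nucleolar RNA methyltransferase fibrillarin, was higher in tumour in 10 of 14 types.

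The mTOR and S6 kinase list of 16 genes did not follow the family, with rank correlations of -0.04 in tumour and -0.25 in normal adjacent tissue. Of its 66 values 1 lay higher (1.52%) and 3 lower (4.55%) in tumour, both below the shares of all genes. Rheb, the GTPase that activates mTOR, had a median of 230 CPM in tumour and 223 CPM in normal adjacent tissue, and Eif4e, the cap-binding factor, 127 and 116 CPM. The list of 12 p53 targets, which holds Rps27l itself, ran against the family, with correlations of -0.89 in tumour and -0.91 in normal adjacent tissue. Its highest sum was in neutrophils (3892 CPM in tumour, 3537 CPM in normal adjacent tissue), where Btg2, an antiproliferative gene that other signals also induce, gave 2753 CPM in tumour and 2326 CPM in normal adjacent tissue. Of 73 values 3 lay higher (4.11%) and 9 lower (12.3%) in tumour, against the same 7.99% and 6.89% of all genes. Cdkn1a, the cell cycle inhibitor p21, had a median of 309 CPM in tumour and 350 CPM in normal adjacent tissue.

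Mitochondrial ribosomal proteins, which build the ribosome of the mitochondrion and come from 78 other genes, had no such relation to the cytosolic family. Their summed level had rank correlations with the cytosolic share of 0.09 in tumour and 0.0022 in normal adjacent tissue, with the lowest sum again in neutrophils (2052 and 2034 CPM) and the highest in luminal progenitor cells (5470 and 5335 CPM). Of 378 values 32 lay higher (8.47%) and 15 lower (3.97%) in tumour, against 7.99% and 6.89% of all genes, so the share of higher values was near that of all genes. The higher ones included 6 of 71 values in macrophages, 6 of 58 in CD8 T cells, 5 of 25 in cDC1 and 4 of 16 in NK cells. In the same types 2, 2, 0 and 1 values lay lower. Relative to the median gene, 5.49%, 7.31%, 9.05% and 7.95% of all genes lay past the limit on the higher side in these types. On the lower side lay 5.14%, 6.62%, 10.6% and 7.75%. For plain CPM the shares of all genes were not counted by type. Mrpl52 had a median of 198 CPM in tumour and 208 CPM in normal adjacent tissue, and Mrpl23 123 and 113 CPM.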

How the data were processed

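Per the labels' protocols, tissue was digested with collagenase (1 mg/ml, 45 min) and trypsin, passed through a 40 µm strainer and sorted by CD45, and both fractions of a sample were loaded in 1 channel. The authors deposited raw UMI counts per gene and barcode. Cell Ranger (4.0.0, per the file headers) wrote them, and R 4.0.3 and Seurat 3.2.2 are listed in the submitters' processing notes, which name GRCh38 although the features are mouse genes, so no coordinates of the files' build are given.

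From these counts, UMIs were summed per library and gated type with Python 3.11.15, NumPy 2.4.6, SciPy 1.17.1 and pandas 2.3.3. Gates took 8 to 128 marker UMIs per 10000 and at least 5 marker UMIs, and their limits were set after the marker distributions of these cells were seen. No doublet caller was run: cells with markers of another lineage were left out instead. Shares have exact Clopper-Pearson intervals and ratios exact conditional binomial intervals. The ratio intervals were tried on simulated counts that varied by counting error only, as the intervals assume, so variation between cells was not covered. Intervals of departures take the median member ratio as known. UMI totals limit the counting error only, and no test between groups was possible. The members and lists were chosen with earlier results of these data known, and coding length replaced transcript length after values were seen.

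Named members were the 5 with most and the 5 with fewest UMIs, those past 2-fold between types, the 3 furthest each way between the libraries by interval, and paralogs with at least 200 UMIs; further members are named where a count turned on them, chosen after their values were seen. Coding lengths, transcripts and 60-base stretches came from GENCODE vM21 and promoters from RefSeq.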

Additional observations from a re-analysis of the deposited data

Results flagged for a closer look

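Rows of the feature list that name ribosomal protein pseudogenes, which the family leaves out, also carried UMIs. Rpl10-ps3 had 8399 UMIs in tumour and 8386 in normal adjacent cells, more than Rpl10 itself (2154 and 2211). Rpl9-ps6 had 3735 UMIs in tumour and 3815 in normal adjacent cells, against 11957 and 14708 for Rpl9. Rpl36a-ps1 had 1147 in tumour and 1105 in normal adjacent cells, and Rpl9-ps1 had 54 and 52. They were picked out because they hold signal that the comparisons do not use, above the limit that a count of 0 allows (3 counts). In CPM the ratios of tumour to normal adjacent were 0.847 for Rpl10-ps3 (0.821 to 0.873) and 0.828 for Rpl9-ps6 (0.791 to 0.866), against 0.824 for Rpl10 (0.776 to 0.874) and 0.687 for Rpl9 (0.671 to 0.704). Whether these UMIs come from the pseudogenes or from their parent genes was not tested.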

How the results depend on the processing

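No paired analysis was possible because each group is 1 library, so no library could be left out either. The log2 ratio of the share over all cells stayed below 0 in the 8 settings tried that could change it (the 2 settings of the gates do not enter it). It was -0.094 with cells weighing equally, -0.11 with cells thinned to 1000 UMIs, -0.093 without mitochondrial UMIs, -0.089 without the 1% deepest cells, -0.11 with a TMM factor and -0.097 without members that have a -ps symbol. The 53 values past the limit between libraries ranged from 40 to 73 under the other settings, with 6 past 1.5-fold. The 3 members past 2-fold between types became 6 with a minimum of 50 UMIs, 6 with 1 UMI in each library and 14 past 1.5-fold, and 2 to 4 otherwise. With cells of mixed markers kept, Rps27 in tumour neutrophils (0.63 on the log2 scale) and Rps27l in tumour CD8 T cells (-0.82) were no longer past 2-fold. With doubled gates or thinned cells Rps27 in neutrophils had too few UMIs for a value. Thinned cells also left no value for Rps19bp1 in luminal progenitor cells and Rps27l in B, CD8 T, NK and gamma delta T cells. Rps27l in tumour migratory dendritic cells kept one (1.90 on the log2 scale).

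The log2 ratio of cDC1 cells, -0.0029 with an interval that held 0, was positive in 6 of 10 settings: 0.054 with doubled gates, 0.103 with cells weighing equally, 0.109 with thinned cells, 0.0071 without mitochondrial UMIs, 0.030 with the TMM factor and 0.00081 without members that have a -ps symbol. The ratio of another type turned in these cases. With cells of mixed markers kept it was -0.0054 in neutrophils, -0.068 in macrophages, -0.082 in CD4 T cells, 0.0028 in gamma delta T cells and 0.035 in luminal progenitor cells. With doubled gates (smallest type 21 cells) it was -0.062 in neutrophils, 0.037 in migratory dendritic cells, 0.072 in luminal progenitor cells and 0.0046 in fibroblasts. With cells weighing equally it was -0.036 in neutrophils, 0.0016 in monocytes, 0.023 in migratory dendritic cells, -0.048 in basal cells and 0.0066 in fibroblasts. With thinned cells it was -0.029, 0.0098, 0.027, -0.031 and 0.042 in the same types. It was 0.017 in luminal progenitor cells without mitochondrial UMIs, 0.014 in migratory dendritic cells and -0.00049 in NK cells with the TMM factor, and 0.000058 in fibroblasts at 10% mitochondrial UMIs. The cause was not tested.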
